A study of Mus musculus with 33 samples.

Results

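The genes described here are members of the Bcl2 family, the regulators of the mitochondrial pathway of cell death, in the mouse thymus. They were chosen by name, 10 symbols in all, and every probe set annotated to 1 of these symbols was taken. A probe set is the group of short array oligonucleotides that reads a stretch of one transcript. Of the 10 genes, 9 had probe sets and the other is not analysed here; the 9 had 29 probe sets, of which 27 passed a filter on low signal (above the median of the array in at least 3 arrays). The whole array table holds 18193 named genes. The arrays covered thymus of C57BL/6J male mice aged 4 to 6 weeks, in 7 groups. There were 7 arrays of whole cortex, 7 of whole medulla, and 3 each of subcapsular, central and perimedullary cortex, all microdissected tissue with its stroma. Cells purified by flow cytometry gave 5 arrays of cortical thymocytes (CD3-/lo and CD45+ with CD90 or CD117) and 5 of medullary thymocytes (CD3hi and CD45+). The sort takes cells by CD3, so it also selects by maturity, and the labels do not say which samples share an animal.

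The family decides whether the outer mitochondrial membrane is breached. Pro-survival proteins (Bcl-2, Bcl-xL, Mcl-1) hold back the pore-forming effectors, among them Bak, and are themselves bound by BH3-only proteins (Bim, Puma, Noxa, Bid, Bad) that convey stress or receptor signals. In the thymus the balance changes with maturation: cortical double-positive thymocytes live on Bcl-xL, mature medullary thymocytes on Bcl-2, and Bim is required for the deletion of self-reactive cells.

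The upstream sequences of the 2 members with the largest rise and the largest fall in sorted cells, Bcl2 and Bcl2l1, are shown first, for reference beside their values. They are the 250 bases upstream of a transcription start in RefSeq (mouse build GRCm38.p6), written 5′ to 3′ on the gene's strand. Capitals mark GC boxes (GGGCGG or its complement CCGCCC, the core bound by Sp1-type factors) and MYB motifs (TAACNG or CNGTTA). The Bcl2 window is chr1:106714291-106714540 (minus strand), and the Bcl2l1 window is chr2:152828490-152828739 (minus strand), the only one of 3 Bcl2l1 windows with a match to either motif.
Bcl2: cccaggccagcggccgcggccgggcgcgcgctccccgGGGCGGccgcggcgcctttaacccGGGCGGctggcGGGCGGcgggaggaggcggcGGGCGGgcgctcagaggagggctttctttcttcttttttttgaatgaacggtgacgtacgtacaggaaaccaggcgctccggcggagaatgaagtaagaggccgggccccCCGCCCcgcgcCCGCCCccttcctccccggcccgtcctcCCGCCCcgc
Bcl2l1: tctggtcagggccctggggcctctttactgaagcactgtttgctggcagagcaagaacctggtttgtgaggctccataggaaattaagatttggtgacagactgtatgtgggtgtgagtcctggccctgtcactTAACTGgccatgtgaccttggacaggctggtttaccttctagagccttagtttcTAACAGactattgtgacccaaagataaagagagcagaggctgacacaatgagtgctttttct
The Bcl2 window held 7 GC boxes and no MYB motif, and the Bcl2l1 window held 2 MYB motifs and no GC box. Windows were listed for 8 members, 14 windows in all, of which 9 windows (6 members) held a GC box and 2 (Bcl2l1 and Bbc3) a MYB motif. Among all 32851 windows of this length, 32.7% held a GC box and 19.8% a MYB motif. A FOXO motif (GTAAACA or TGTTTAC, in 3.17% of all windows) was present in 1 window each of Bcl2l11 and Bbc3, while a STAT motif (TTCNNNGAA, 7.02%) and an NR4A motif (AAAGGTCA or TGACCTTT, 1.34%) were in none of the 14. The shorter nuclear receptor core (AGGTCA or TGACCT, 14% of all windows), which the NR4A motif contains, was in 1 of the 14, the Bcl2l1 window printed here, where it is left in lower case. Both strands were searched, and no marked match overlaps another. These motifs were picked after matches had been seen, and a match describes the letters in the window, not binding.

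Signals below are the deposited linear array signal, as mean ± SD over arrays, and a gene with several probe sets is described by the one of highest mean over the arrays. Log2 fold changes are from a limma fit over all 33 arrays and 30045 probe sets, given with the standard error (SE) and the Benjamini-Hochberg adjusted p over all probe sets. A gene "rose" or "fell" when that p was below 0.05, and was "called" when the change was also at least 2-fold. Levels are compared only within a probe set. Of the 33 arrays, 13 had a wide upper tail (0.1% of probe sets above a signal of at least 42000). They were replicates 1 to 3 of the sorted medullary thymocytes and 1 to 5 of both whole cortex and whole medulla. Several results that move with these arrays are given with and without them, and others by their range over the alternatives. Mature thymocyte genes had a summed signal of 672 to 821 in the sorted cortical group and 45300 to 58800 in the sorted medullary group. Cortical thymocyte genes summed to 88700 to 94800 in the sorted cortical group and 14300 to 20500 in the sorted medullary group. Among the latter, Cd8b1 was at 21700 ± 1020 and 11200 ± 1400. The RNA of Cd3e, a chain of the CD3 used in the sort, was at 7330 ± 663 and 9060 ± 2760. Cortical epithelial genes summed to 40200 to 48500 in whole cortex and 5410 to 7480 in whole medulla.

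Between whole medulla and whole cortex, 4 of the 9 members rose (31.7% of all probe sets did), 3 fell (21.1%) and 2 did not pass the test. Called were 3 of the 9, against 20.5% of all probe sets. Of these, 2 were called higher (Bcl2 and Pmaip1), where 15.7% of all probe sets were called higher, and 1 was called lower (Bid), where 4.84% were. The median change of the 9 was 0.375 on the log2 scale, beside 0.10 over all probe sets. Between sorted medullary and sorted cortical thymocytes, 3 rose (17.7% of all probe sets), 3 fell (16.2%) and 3 did not pass. Called were 4 of the 9, against 13%. Called higher were 2 (Bcl2 and Bcl2l11), against 7.04% of all probe sets, and called lower were 2 (Bcl2l1 and Bid), against 5.91%. The median there was -0.408, beside 0.0668 over all probe sets. With 9 genes chosen by name these shares are a description and not a test of the family. Each member is counted by its probe set of highest mean, while the shares are over all probe sets, so the units differ.

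**Figure D1:**
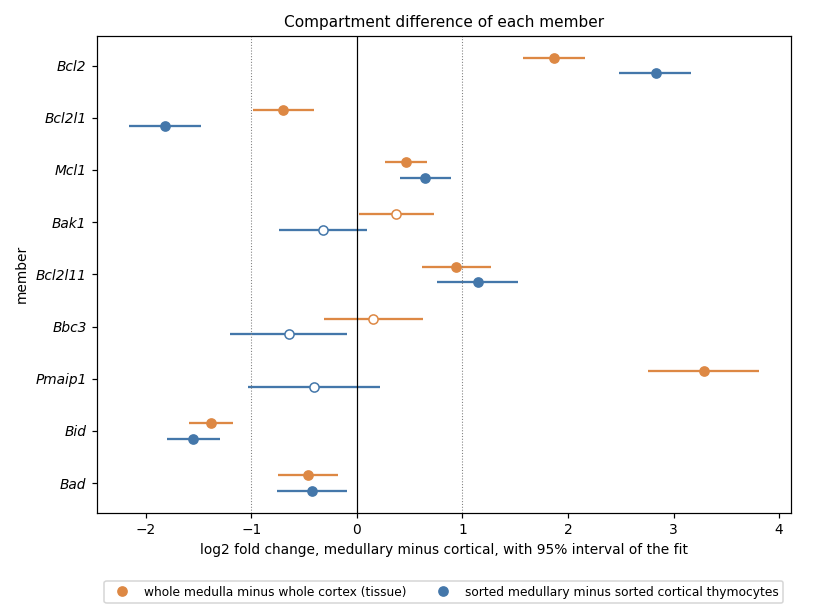
Log2 fold change of each of the 9 members, medullary minus cortical, with the 95% interval of the fit, for whole tissue (orange) and sorted thymocytes (blue); open points did not pass the test, and dotted lines mark a 2-fold change. The members differ in direction: Bcl2 is at 1.87 and 2.83, Bcl2l1 at -0.70 and -1.82, and Pmaip1 at 3.29 in tissue and -0.41 in sorted cells.

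Among the pro-survival genes, Bcl2 (probe set 1457687_at) was higher in every medullary group. In sorted cortical thymocytes its signal was 875, 633, 553, 541 and 481, and in sorted medullary thymocytes 4050, 3560, 4700, 4850 and 5230. The lowest medullary array was far above the highest cortical one. The difference was 7.09-fold (log2 2.83, SE 0.17, adjusted p = 8.4e-16, limma). In whole cortex the signal ran from 508 over a median of 752 to 898, and in whole medulla from 2300 over 2620 to 3860, again without overlap. The tissue difference was 3.64-fold (log2 1.87, SE 0.14, adjusted p = 3.1e-13). All 5 probe sets of Bcl2 rose and were called in both comparisons, at 1.86 to 2.68 in tissue and 2.78 to 3.39 in sorted cells.

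The compartment difference of Bcl2 was smaller in tissue than in sorted cells. The interaction term was -0.96 (SE 0.22, adjusted p = 0.0014), which is 1 of the 9 members that fell in this term, where 8.75% of all probe sets did. It did not pass without the wide-tail arrays (-0.92, adjusted p = 0.076), and 3 of the 5 probe sets passed, at -0.96 to -0.58 over all 5. Its parts were -0.68 for the medulla and 0.28 for the cortex, as tissue minus sorted cells. Whole medulla, at 2790 ± 518 (n = 7), was below sorted medullary thymocytes, at 4480 ± 665 (n = 5), by 1.61-fold (adjusted p = 5.6e-04, and 0.061 without the wide-tail arrays). These ranges overlapped, and 4 of the 5 probe sets fell (-1.14 to 0.02), where 20.8% of all probe sets did. Whole cortex, at 747 ± 128, and sorted cortical thymocytes, at 617 ± 154, did not pass (log2 0.28, 95% interval -0.04 to 0.60), although they did without sorted cortical replicate 1 (0.41, adjusted p = 0.045) and with quantile normalization (0.40, adjusted p = 0.039, beside -0.58 for the medulla). In whole medulla the tissue also held non-thymocyte cells: summed dendritic genes were 24200 to 43300 there and 265 to 533 in sorted medullary thymocytes, and their part in the result was not tested. Mature thymocyte genes went the same way. All 5 measured were called lower in the interaction term (list median -1.77). All 5 also fell in whole medulla against sorted medullary thymocytes and rose in whole cortex against sorted cortical thymocytes. In bulk samples, fewer cells of a type and less RNA per cell cannot be told apart.

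Bcl2l1, which encodes Bcl-xL, went the other way (1420888_at). Sorted cortical thymocytes gave 3460, 2990, 3260, 3110 and 3140, and sorted medullary thymocytes 929, 832, 759, 917 and 1020. Every cortical array was above every medullary one. The fall toward the medullary side was 3.52-fold (log2 -1.82, SE 0.17, adjusted p = 5.3e-11). In whole cortex the signal ran from 1130 over 1570 to 2920, and in whole medulla from 785 over 1090 to 1300, so the tissue groups overlapped. The fall in tissue was 1.62-fold (log2 -0.70, SE 0.14, adjusted p = 8.9e-05). All 3 probe sets that passed the filter fell in both comparisons, at -1.5 to -0.70 in tissue and -2.13 to -1.82 in sorted cells.

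Whole cortex was the most variable group for Bcl2l1, and its spread followed the wide-tail arrays. The 5 wide-tail arrays of whole cortex averaged 1450 (1130 to 1900) and the other 2 averaged 2700 (2480 and 2920). The tissue difference was -0.56 within the wide-tail arrays (adjusted p = 0.006) and -1.05 without them (adjusted p = 4.6e-08). The interaction term was 1.12 (SE 0.22, adjusted p = 2.2e-04), and 0.65 without these arrays (adjusted p = 0.0014). Of the 3 probe sets, 2 passed in this term (0.63 to 1.18 over all 3). Whole cortex was below sorted cortical thymocytes by 1.85-fold (log2 -0.88, SE 0.16, adjusted p = 3.1e-05), and by -0.24 on the log2 scale without these arrays (adjusted p = 0.038). All 3 probe sets fell there (-1.63 to -0.88). Epithelial and macrophage genes also separate these groups (cortical epithelial sum 419 to 524 and macrophage sum 255 to 329 in sorted cortical thymocytes, and 6340 to 8980 for macrophages in whole cortex), and their part was not tested.

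Mcl1, a short-lived survival protein needed at several thymocyte stages, had a narrow range over the 7 groups on its representative probe set (1437527_x_at). This range is within the limit on subregion levels given further on. On this probe set the lowest group was sorted cortical thymocytes, at 8540, 7760, 8130, 7900 and 8830. Sorted medullary thymocytes gave 12900, 12800, 15700, 11300 and 12200. The groups did not overlap, although the difference was 1.57-fold (log2 0.65, SE 0.12, adjusted p = 3.2e-05). Whole cortex ran from 7030 over 9840 to 11700 and whole medulla from 10200 over 13300 to 15700, with overlap, a 1.38-fold rise (log2 0.47, SE 0.10, adjusted p = 1.6e-04). All 6 Mcl1 probe sets rose in tissue (0.27 to 0.49) and 5 of 6 in sorted cells (0.08 to 0.69). Between whole cortex and sorted cortical thymocytes 2 of the 6 rose and 1 fell (-0.77 to 0.41). The lowest group thus depends on the probe set. The range does too: means of 1416881_at ran from 722 in subcapsular cortex to 2690 in sorted medullary thymocytes.

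**Figure D2:**
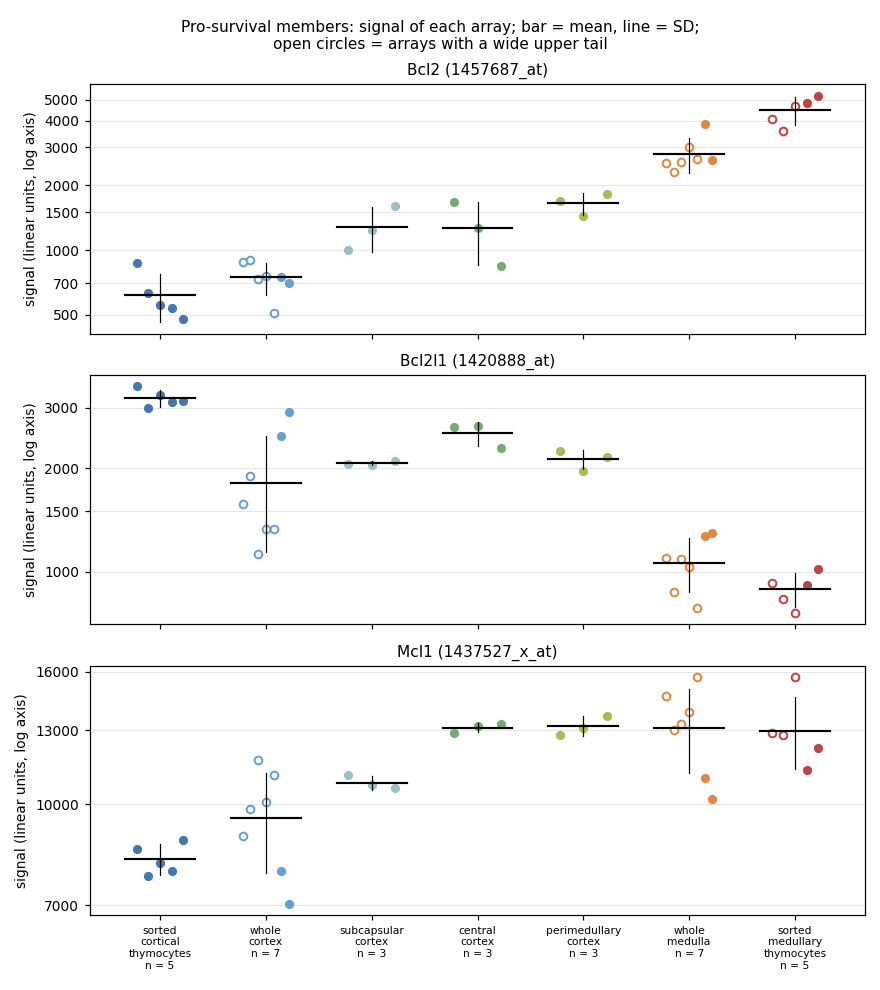
Signal of each array on a log axis for Bcl2, Bcl2l1 and Mcl1 over the 7 groups, from sorted cortical to sorted medullary thymocytes; the bar is the mean, the vertical line the SD, and open circles are wide-tail arrays. Bcl2 means run from 617 to 4480, Bcl2l1 means from 3190 down to 890, and Mcl1 means from 8230 to 13200; in whole cortex the 2 arrays without a wide tail are the highest for Bcl2l1 and the lowest for Mcl1.

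Among the pro-death genes, Bcl2l11 (Bim) was higher in medullary samples, as Bcl2 was (1456005_a_at). Sorted cortical thymocytes gave 2830, 2830, 3150, 2700 and 2610, and sorted medullary thymocytes 5960, 7390, 7360, 4960 and 6010, without overlap. The rise was 2.21-fold (log2 1.15, SE 0.19, adjusted p = 8.7e-06). Whole cortex ran from 2110 over 3030 to 5420 and whole medulla from 4980 over 5290 to 9330, where 1 cortical array (replicate 3) reached into the medullary range. The rise in tissue was 1.92-fold (log2 0.94, SE 0.16, adjusted p = 7.0e-06). It was 1.24 on the log2 scale without the wide-tail arrays and 0.82 within them. Of its 5 probe sets, 4 rose in each comparison. The interaction term did not pass (-0.20, 95% interval -0.71 to 0.30).

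The probe sets of Bcl2l11 differed between tissue and sorted cells. The representative one did not pass in whole cortex against sorted cortical thymocytes (0.10, adjusted p = 0.68), nor in whole medulla against sorted medullary thymocytes (-0.10, adjusted p = 0.68). The other 4 fell in both, at -1.59 to -0.35 and at -1.41 to -0.48. The level of Bcl2l11 in tissue against sorted cells therefore depends on the probe set.

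Pmaip1 (Noxa), a BH3-only protein that binds Mcl-1, was highest in whole medulla (1418203_at, its single probe set). Whole medulla ran from 777 over 1040 to 1120. Every other array was at 163 or below, among them 85.8, 82.6 and 77.6 in perimedullary cortex, within the limit on subregion levels given further on. Whole cortex ran from 2.62 over 102 to 163, sorted cortical thymocytes gave 96.3, 71.2, 59.1, 85.1 and 52.9, and sorted medullary thymocytes gave 43.2, 42.7, 39, 68.7 and 47.4. All 7 whole medulla arrays were above the median signal of their array, and none of the 5 sorted medullary arrays was. The tissue rise was 9.76-fold (log2 3.29, SE 0.26, adjusted p = 5.7e-13). In sorted cells the change was -0.41 (95% interval -1.03 to 0.22, adjusted p = 0.33). The interaction term was 3.70 (SE 0.40, adjusted p = 8.2e-09), and Pmaip1 and Bcl2l1 were the 2 members that rose in it (12.8% of all probe sets) and were called higher (9.34%; 11.4% in either direction).

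Whole medulla exceeded sorted medullary thymocytes in Pmaip1 by 14.1-fold (log2 3.81, SE 0.28, adjusted p = 1.5e-13), the single member called in this comparison, where 14% of all probe sets were called higher and 17.8% in either direction. Low signals are drawn together by the offset of 26.2 added before log2, so these fitted folds are smaller than the ratio of the mean signals. The value was 3.90 within the wide-tail arrays and 3.72 without them. Genes of several cell types were also higher in whole medulla than in sorted medullary thymocytes. Summed medullary epithelial genes (6 of 6 measured) were 16600 to 18900 in whole medulla and 203 to 365 in sorted medullary thymocytes, with none at 0 on average (the lowest mean was Krt14, at 11.6). All 6 dendritic genes, 3 of the 4 B cell genes measured and all 6 mesenchymal genes also rose between these groups. Of 7 macrophage genes, 6 rose as well (sum 14400 to 17900 against 334 to 490), as did 4 of 5 cortical epithelial and 3 of 4 endothelial genes (1 endothelial gene fell). In whole cortex against sorted cortical thymocytes Pmaip1 did not pass (0.12, adjusted p = 0.77). There 7 of 7 macrophage, 5 of 6 mesenchymal, 5 of 6 dendritic and 5 of 5 cortical epithelial genes rose. So did 4 of 6 medullary epithelial, 3 of 4 endothelial and 1 of 4 B cell genes. The part of these cell types in the result was not tested.

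Bid, which links death receptors to mitochondria once cleaved, was higher on the cortical side in both kinds of sample (1417045_at). Sorted cortical thymocytes gave 1520, 1530, 1560, 1450 and 1510, and sorted medullary thymocytes 449, 505, 430, 510 and 632. Whole cortex ran from 1170 over 1400 to 1550 and whole medulla from 342 over 529 to 624. Neither pair overlapped. Bid fell 2.92-fold in sorted cells (log2 -1.55, SE 0.12, adjusted p = 1.3e-12) and 2.60-fold in tissue (log2 -1.38, SE 0.10, adjusted p = 1.8e-13). Tissue and sorted cells of the same compartment were close: the difference was -0.15 (95% interval -0.38 to 0.08) for cortex and 0.02 (-0.21 to 0.25) for medulla. Of its 3 probe sets, 3 fell in tissue (-1.77 to -0.63) and 2 in sorted cells (-1.58 to -0.43).

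Bad, whose binding to survival proteins is controlled by growth-factor signalling, was slightly lower on the medullary side (1416582_a_at). Whole cortex ran from 387 over 555 to 690 and whole medulla from 313 over 385 to 573, with overlap, a 1.38-fold fall (log2 -0.46, SE 0.14, adjusted p = 0.0053). It did not pass without the wide-tail arrays (-0.20, adjusted p = 0.45). Sorted cortical thymocytes gave 669, 604, 624, 524 and 546, and sorted medullary thymocytes 530, 301, 415, 489 and 471. These ranges overlapped by 1 medullary array. The fall was 1.34-fold (log2 -0.42, SE 0.16, adjusted p = 0.043), and it did not pass in 9 of 45 alternatives, 5 of them the omission of a single sorted array (cortical replicate 1, 2 or 3, or medullary replicate 2 or 3; adjusted p up to 0.18). This sorted difference also did not pass with a term for the wide-tail arrays or without them (adjusted p up to 0.23 over the 45 alternatives). Both Bad probe sets fell in each comparison.

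Bbc3 (Puma) and Bak1 did not pass in either compartment comparison. Bbc3 (1423315_at) gave 746, 460, 563, 402 and 408 for cortical and 187, 292, 264, 441 and 451 for medullary sorted cells, with overlap (log2 -0.65, 95% interval -1.20 to -0.09, adjusted p = 0.067). It passed without sorted medullary replicate 4 or 5 or whole medulla replicate 4 (adjusted p 0.035 to 0.05). Over the 45 alternatives it was -0.77 to -0.16 (adjusted p up to 0.67). The 3 wide-tail sorted medullary arrays averaged 247 and the other 2 averaged 446, beside 516 in sorted cortical thymocytes. In tissue the Bbc3 change was 0.16 (-0.31 to 0.63), and -0.44 to 0.40 over 46 alternatives (adjusted p at least 0.24). Wide-tail whole medulla arrays averaged 320 and the other 2 averaged 343. Bbc3 was 1.77-fold lower in whole cortex, at 292 ± 124, than in sorted cortical thymocytes, at 516 ± 144 (adjusted p = 0.01), but -0.12 on the log2 scale (adjusted p = 0.76) without the wide-tail arrays, which averaged 224 where the other 2 cortex arrays averaged 461. Bbc3 and Bcl2l1 were the 2 members that fell between whole cortex and sorted cortical thymocytes, against 20.1% of all probe sets, 0 rose, against 19%, and 0 were called at the 2-fold limit, against 12.4%.

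Bak1, the pore-forming effector measured here (1418991_at), ran from 273 over 505 to 911 in whole cortex and from 542 over 685 to 955 in whole medulla (log2 0.38, SE 0.17, adjusted p = 0.068). Sorted cortical thymocytes gave 663, 666, 561, 547 and 663, and sorted medullary thymocytes 457, 522, 305, 576 and 656 (log2 -0.32, adjusted p = 0.24). This sorted difference was -0.43 to -0.01 over 45 alternatives (adjusted p at least 0.12). The 3 wide-tail sorted medullary arrays averaged 428 and the other 2 averaged 616. The tissue value depended on the wide-tail arrays. It was 0.64 within them (adjusted p = 0.012) and -0.29 without them (adjusted p = 0.098), and cortex averaged 445 in these arrays and 877 in the other 2. It passed without whole cortex replicate 6 or 7 or whole medulla replicate 2 (0.43 to 0.50, adjusted p 0.011 to 0.042). Bak1 rose 1.41-fold from sorted medullary thymocytes to whole medulla (adjusted p = 0.035), where 22% of all probe sets rose, and this did not pass in 8 of 46 alternatives, among them the omission of whole medulla replicate 1, 4 or 6 or sorted medullary replicate 1 or 3 (adjusted p up to 0.17), and of the wide-tail arrays (0.28).

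**Figure D3:**
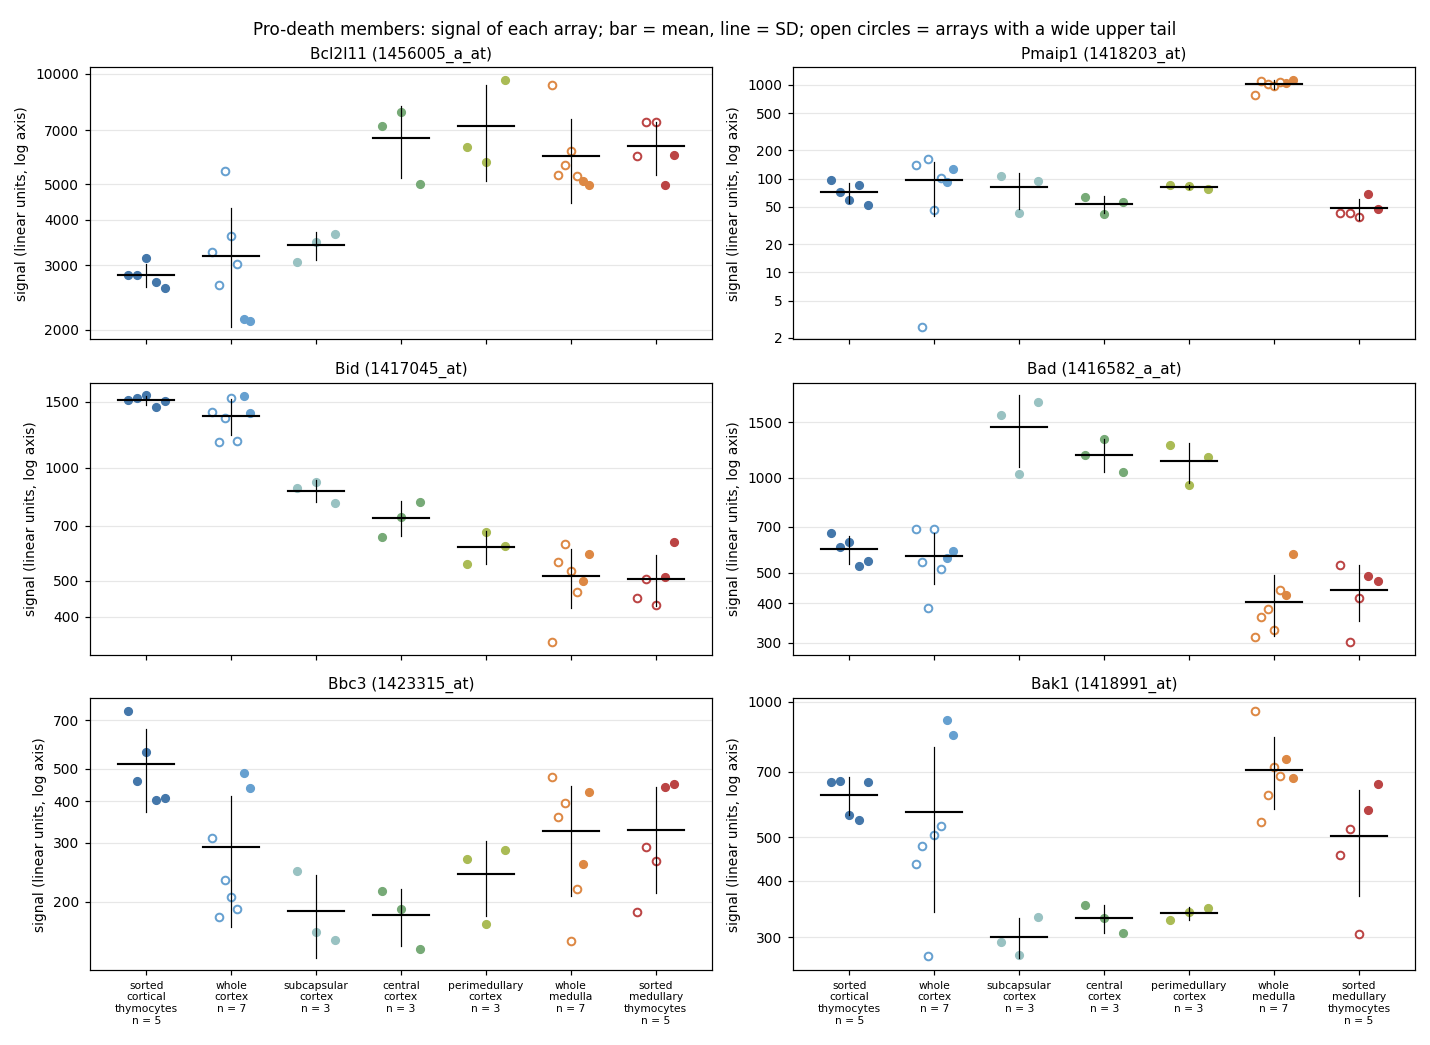
Signal of each array on a log axis for the 6 pro-death members over the 7 groups; the bar is the mean, the vertical line the SD, and open circles are wide-tail arrays. Bcl2l11 is lower in subcapsular (3400) than in central and perimedullary cortex (6690 and 7210), Pmaip1 is at 1020 in whole medulla, and Bid is at 1510 in the cortical and 505 in the medullary sorted cells. Subregion points are not comparable with the other groups, since probe sets of a gene disagree there (Bad at 1.11 and -1.45 on the log2 scale against whole cortex).

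The 3 cortical subregions were compared with each other and not with whole cortex, because probe sets of one gene disagreed between these array sets. Over the 6423 genes with more than 1 probe set, the range within a gene of the difference between subregions and whole cortex was at least 2 on the log2 scale in 18.5%, beside 1.84% for medulla minus cortex and 1.04% for sorted cells. Of the 6 members with more than 1 probe set, 4 passed that range, beside 0 and 0. One Bad probe set was at 1.11 and the other at -1.45. For Bcl2l1 the representative probe set was at 0.37 while 1420887_a_at was at -3.09 (23.2 in the subregions and 395 in whole cortex). For Bid, 1448560_at was at -3.23 and 1447873_x_at at -0.07. The cause was not tested, and the high Bad and low Bak1 signals of the subregions cannot be read as levels against whole cortex.

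**Figure D4:**
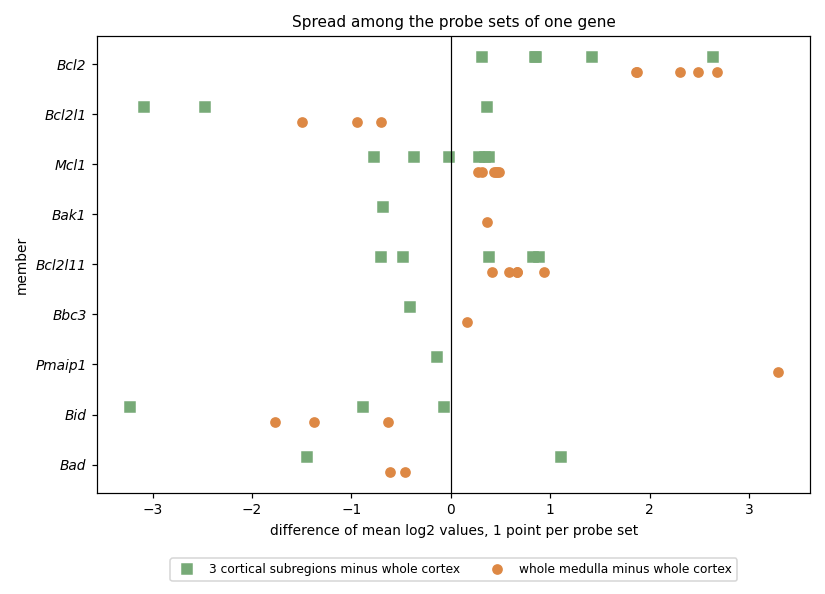
Each point is 1 probe set of a member; the axis is the difference of mean log2 values for the 3 cortical subregions minus whole cortex (green squares) and whole medulla minus whole cortex (orange circles). The orange points of a gene lie together (median range 0.66 over the 6 genes with more than 1 probe set), while the green points spread (median range 2.45).

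Within the cortex, Bcl2l11 passed on its representative probe set in 2 of the 3 comparisons of subregions, Bid in 1, and Bcl2 on other probe sets than its representative one. The Bcl2l11 signal was 3070, 3480 and 3660 in subcapsular cortex, 7220, 7850 and 5000 in central cortex, and 6290, 5730 and 9620 in perimedullary cortex. All 3 subcapsular arrays were below the other 6. Subcapsular cortex was 1.93-fold below central cortex (log2 -0.95, SE 0.25, adjusted p = 0.019). It was the 1 member that fell, against 1.74% of all probe sets, 0 rose, against 2.54%, and 0 were called, against 0.952%. Perimedullary cortex was 2.06-fold above subcapsular cortex (log2 1.04, SE 0.25, adjusted p = 0.0036), the 1 member that rose there (5.78% of all probe sets) and was called higher (2.99%; 4.18% in either direction). It was not called without perimedullary replicate 3 or subcapsular replicate 1, when its change fell below 2-fold. Perimedullary and central cortex did not pass (0.10, 95% interval -0.40 to 0.60), and 0 members passed between them on the representative probe set, where 1.34% of all probe sets rose, 0.113% fell and 0.935% were called. The probe sets 1435448_at and 1435449_at changed the same way, at -0.89 and -0.67 for subcapsular against central and 1.18 and 0.81 for perimedullary against subcapsular. Over all 5 Bcl2l11 probe sets, 3 fell in the former comparison and 4 rose in the latter. In the former, 1456006_at (-0.20, adjusted p = 0.82) and 1426334_a_at (-0.23, adjusted p = 0.92) did not pass. The representative probe set no longer passed between subcapsular and central cortex on omitting any 1 of 5 arrays (subcapsular 1, 2 or 3, or central 1 or 2; adjusted p 0.057 to 0.14), whereas between perimedullary and subcapsular cortex it passed in all 45 alternatives run, with an adjusted p of 0.045 at most.

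Bid was lower toward the medulla, at 884, 918 and 805 in subcapsular and 552, 674 and 618 in perimedullary cortex, without overlap (1.4-fold, log2 -0.48, SE 0.16, adjusted p = 0.041). It was the 1 member that fell, where 5.9% of probe sets did, and it no longer passed on omitting any 1 of these 6 arrays (adjusted p up to 0.19), without the filter and in the mean of its probe sets. The representative Bcl2 probe set was at 1000, 1240 and 1600 in subcapsular and 1700, 1440 and 1820 in perimedullary cortex, with overlap (0.38, adjusted p = 0.30). Of the 5 Bcl2 probe sets, 3 rose there, however. On 1443837_x_at the signals were 570, 469 and 471 against 2010, 1920 and 1780 (log2 1.87, adjusted p = 3.4e-07), and on 1440770_at 1620, 1450 and 1190 against 5050, 4680 and 4710 (log2 1.75, adjusted p = 4.4e-04). With the mean of its probe sets Bcl2 rose (1.11, adjusted p = 1.1e-05). Between perimedullary and central cortex, 1443837_x_at rose and was called (1900 ± 114 against 669 ± 81, log2 1.48, adjusted p = 5.8e-05). The mean of the probe sets also rose there (0.79, adjusted p = 0.0039), below 2-fold. The result for Bcl2 in the subregions thus differs by probe set. Mcl1 was at 11100, 10700 and 10600 in subcapsular cortex, below all central (12900 to 13300) and perimedullary arrays (12800 to 13700), but did not pass (-0.29, adjusted p = 0.38, and 0.29, adjusted p = 0.25, for subcapsular against central and perimedullary against subcapsular). Both passed with quantile normalization (-0.54, adjusted p = 9.2e-04, and 0.53, adjusted p = 3.4e-04), with the mean of the probe sets (adjusted p = 0.038 and 0.011) and without the wide-tail arrays (adjusted p = 0.0022 and 0.0011). Bcl2l1 was at 2070 ± 23.8, 2530 ± 204 and 2120 ± 141 from subcapsular to perimedullary cortex and passed in none of the 3 comparisons. Mature thymocyte genes summed to 1010 to 1060, 2020 to 2310 and 10600 to 11600 in the same order. From subcapsular to perimedullary cortex, 5 of 5 mature thymocyte genes, 4 of 6 dendritic, 5 of 7 macrophage and 3 of 6 medullary epithelial genes rose. So did 1 of 4 B cell and 1 of 4 endothelial genes. In the same comparison 3 of 5 genes of dividing cells fell. So did 1 of 7 macrophage, 1 of 7 cortical thymocyte, 1 of 5 cortical epithelial and 1 of 6 mesenchymal genes. From central to subcapsular cortex, 3 of 6 mesenchymal genes, 3 of 5 genes of dividing cells and 1 of 4 endothelial genes rose. There 2 of 5 mature thymocyte, 1 of 6 dendritic and 1 of 7 macrophage genes fell. Their part in the differences of Bcl2, Bcl2l11, Bid and Mcl1 was not tested.

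The order of levels over the 7 groups is given for the representative probe sets as a description, with neighbours tested only where neither or both are subregions. Bcl2 was lowest in sorted cortical thymocytes, followed by whole cortex, central, subcapsular and perimedullary cortex, then whole medulla, and was highest in sorted medullary thymocytes. On its probe sets 1440770_at and 1443837_x_at, perimedullary cortex (4810 and 1900) was instead above whole medulla (2480 and 1630). For Bcl2l1 the order was sorted medullary thymocytes, whole medulla, whole cortex, subcapsular, perimedullary and central cortex, and sorted cortical thymocytes. Among its neighbours, sorted medullary thymocytes and whole medulla did not pass (0.24, adjusted p = 0.23), while whole medulla and whole cortex did. Without the wide-tail arrays the former pair passed as well (0.40, adjusted p = 0.0032).

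The genes with the group pattern most like a member's were found over the 7 group means of 13462 genes, by the root mean square difference of centred log2 means. For Bcl2, whose means span 2.83, they were Adgrg3 (0.18), Tgfbr2 (0.19) and Kbtbd11 (0.20). Tgfbr2, a receptor chain for TGF-beta, went from 1660 ± 69.7 in the cortical to 8430 ± 633 in the medullary sorted cells. For Bcl2l1, which spans 1.82, they were Plcl1 (0.12), Kremen1 (0.14) and Gbp8 (0.15). Kremen1 went from 2090 ± 191 down to 606 ± 84.4 over the same sorted groups. For Bcl2l11, which spans 1.31, they were Gm30054 (0.11), Sag (0.15) and Gramd3 (0.17), and Gramd3 was at 931 ± 150 in subcapsular and 1940 ± 265 in central cortex. For Mcl1, with a span of 0.68, they were Slc35b3 (0.06), Ppcs (0.06) and Ap5b1 (0.07). These are similarities over 7 points that share the arrays with the members, and 3 of the points are subregions, where probe sets disagree.

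Of 14 other genes of the Bcl2 family, 9 could be tested. In tissue 4 of 9 rose and 1 fell (31.7% and 21.1% of all probe sets), and in sorted cells 0 rose and 2 fell (17.7% and 16.2%). The list medians were -0.118 and -0.32, beside 0.10 and 0.0668 over all probe sets. Bcl2l14 was called higher in whole medulla, at 596 ± 46.9 against 97.5 ± 66 in whole cortex (log2 2.56, SE 0.30, adjusted p = 5.7e-09). As for Pmaip1, sorted medullary thymocytes had little of it (62.8 ± 55.4), and its interaction term was 2.88 (adjusted p = 1.2e-05). Bmf, a BH3-only protein like Bim, moved against Bcl2l11. It was at 2080 ± 278 in the cortical and 780 ± 150 in the medullary sorted cells (log2 -1.39, SE 0.24, adjusted p = 1.3e-05), but it shared the low subcapsular level, at 1120 ± 235 against 2590 ± 408 in central cortex (log2 -1.20, adjusted p = 0.017). Bok, a pore-forming relative, was at 384 ± 62 in whole cortex and 71.5 ± 34.5 in sorted cortical thymocytes (log2 2.17, adjusted p = 8.9e-08), and at 354 ± 69.7 and 55.9 ± 51.2 on the medullary side. Bnip3 was likewise higher in tissue, at 1140 ± 127 in whole medulla and 261 ± 42.5 in sorted medullary thymocytes (log2 2.03, adjusted p = 1.3e-16). Bik had an interaction term of 1.89 (adjusted p = 0.012).

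Downstream of the family, 14 of 16 genes of the apoptosome and caspases were tested. In tissue 4 of the 14 rose and 7 fell (31.7% and 21.1% of all probe sets), and in sorted cells 2 rose and 3 fell (17.7% and 16.2%), with list medians of -0.156 and -0.0162. The inhibitor of apoptosis Birc3 was at 7120 ± 414 in whole medulla and 1680 ± 306 in whole cortex (log2 2.08, adjusted p = 1.4e-18), and was also called higher in sorted medullary thymocytes (log2 1.5, adjusted p = 1.5e-12). Its relative Birc2 was called higher in whole medulla against both whole cortex (1.21) and sorted medullary thymocytes (1.37). Casp2, at 1520 ± 167 against 3350 ± 553, and Casp6, at 1090 ± 109 against 2250 ± 253, were called lower in whole medulla (log2 -1.12 and -1.03). Apaf1, the scaffold of the apoptosome, fell in tissue (-0.36, adjusted p = 0.0012) and in sorted cells (-0.93, adjusted p = 1.1e-08). The mitochondrial protease gene Htra2 was called higher in whole medulla than in sorted medullary thymocytes (1.18, adjusted p = 1.1e-10), and its interaction term was 1.14.

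Of 28 upstream regulators, 23 were tested. In tissue 12 of the 23 rose and 7 fell (31.7% and 21.1% of all probe sets), and in sorted cells 8 rose and 8 fell (17.7% and 16.2%), with list medians of 0.229 and -0.149. The interleukin-7 receptor chain Il7r, a survival receptor upstream of Bcl-2, was at 411 ± 44 in the cortical and 9710 ± 1610 in the medullary sorted cells (log2 4.46, SE 0.20, adjusted p = 1.3e-19). Like Bcl2, its difference was smaller in tissue (2.55, interaction -1.92, adjusted p = 5.0e-07). The kinase gene Pim2 rose beside it (log2 2.41 in sorted cells, adjusted p = 6.9e-16). Nr4a3, an orphan receptor induced by antigen receptor signals, rose in both (3.19 in tissue and 2.57 in sorted cells). It was also lower in subcapsular than central cortex (-1.09, adjusted p = 2.8e-04) and higher in perimedullary than subcapsular cortex (1.93), as was its relative Nr4a1 (1.60, adjusted p = 1.8e-04), the same directions as Bcl2l11. The transcription factors Myb, at 14700 ± 759 against 2280 ± 193, and Gfi1, at 4900 ± 244 against 787 ± 110, were called lower in sorted medullary thymocytes (log2 -2.67 and -2.61), the direction of Bcl2l1. Cdkn1a, a p53 target as Pmaip1 is, was at 1510 ± 330 in whole medulla, 227 ± 82.3 in whole cortex and 86.7 ± 34.7 in sorted medullary thymocytes, with an interaction term of 3.16 (SE 0.34, adjusted p = 4.9e-09). In the subregions it was at 407 to 544 on average, which cannot be read as a level against whole cortex or whole medulla. Mdm2, another p53 target, did not pass in tissue (966 ± 91.7 against 913 ± 199, log2 0.11, adjusted p = 0.51) or in sorted cells (-0.15, adjusted p = 0.50), and was chosen for mention after its values were seen. The part of p53 in the values of Pmaip1, Cdkn1a and Mdm2 was not tested.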

How the data were processed

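RNA of 33 thymus samples was hybridised to 33 Affymetrix arrays after oligo-dT priming. The authors deposited linear signal intensity per probe set, made with Affymetrix Expression Console 1.0 and MAS5 per the submitters' processing notes. Each array was scaled on its own (mean without the outer 2% on each side 492 to 498), with no normalization between arrays. RNA came from tissue by one kit and from sorted cells by another, so the effect of the kit cannot be told apart from that of the sample type. The members and gene lists were chosen with earlier results of these data known. Probe sets were named from the platform annotation (34945 of 45037 with 1 symbol).

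The signal plus 26.2 (median over arrays of the 25th percentile) was put on the log2 scale. The 30045 probe sets above the array median in at least 3 arrays entered a linear model of 7 groups in limma 3.58.1 under R 4.3.3, with 26 residual degrees of freedom and a trended spread, for 8 comparisons. Fold changes of weak signals are therefore understated. On simulated data (whole medulla against whole cortex, 30045 probe sets) the fit recovered 91% of changes of 1.5 and 100% of 2.5 on the log2 scale, with 4 false calls. The simulated noise was independent between probe sets and between arrays. It held no wide-tail arrays or other effects shared within an array, so these figures do not cover them. The precision is limited by the number of arrays, and p-values measure the spread between samples whose animals are not given. Named pathway genes are, per list and comparison, at most 3 called genes of largest change in each direction; Apaf1 was added after its values were seen. The 6 motifs reported in RefSeq windows were chosen from a longer set of patterns (E-box, NF-kB-like, TCF-like and others) after their matches in the members had been seen, so their counts support nothing. Alternatives were another offset, quantile normalization, other filters, other rules for probe sets, other samples, weights, a replicate block, terms for or omission of wide-tail arrays, and each array left out. Within-wide-tail values were added after seeing the data.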

Additional observations from a re-analysis of the deposited data

Results flagged for a closer look

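For 3 members the compartment difference in tissue was not that of sorted thymocytes by the interaction term of the fit. Both tissue groups hold stroma, and both were isolated with a different RNA kit than both sorted groups. The part of stroma and kit was not tested. The term was -0.96 for Bcl2 (adjusted p = 0.0014), 1.12 for Bcl2l1 (adjusted p = 2.2e-04) and 3.70 for Pmaip1 (adjusted p = 8.2e-09). Pmaip1 had opposite signs in tissue and sorted cells, although its sorted difference did not pass the test.

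Single arrays stood apart in 2 of 36 member and group sets tested, and chance alone flags about 1 in 20. The Bcl2l11 signal of whole medulla replicate 1 was 9330, where the nearest array was at 6170 and the lowest at 4980. The Pmaip1 signal of sorted medullary thymocyte replicate 4 was 68.7, where the nearest was 47.4 and the lowest 39.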

How the results depend on the processing

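Counts of called members are given as main value and alternative. Without a minimum fold they went from 3 to 7 (whole medulla against whole cortex), 1 to 3 (whole medulla against sorted medullary thymocytes), 0 to 2 (whole cortex against sorted cortical thymocytes), 1 to 2 (perimedullary against subcapsular) and 0 to 1 (subcapsular against central). Without the wide-tail arrays they went from 3 to 5 for medulla against cortex and from 2 to 1 for the interaction term. With a gene taken as the mean over its probe sets they went from 2 to 1 for the interaction and from 0 to 1 for cortex against cortical thymocytes. Quantile normalization gave 1 for subcapsular against central cortex in place of 0. On leaving out single arrays the count was 3 to 4 for medulla against cortex, 4 to 4 for sorted cells, 2 to 3 for the interaction, 1 to 1 for whole medulla against sorted medullary thymocytes, 0 to 1 for cortex against cortical thymocytes (1 without whole cortex replicate 7), 0 to 1 for perimedullary against subcapsular (0 without perimedullary replicate 3 or subcapsular replicate 1), 0 to 1 for subcapsular against central (1 without central replicate 3) and 0 to 0 for perimedullary against central. The cause was not tested beyond what each alternative changes by construction.

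Signs reversed in 4 of the alternative values, each for a difference that had not passed: Bak1 in whole cortex against sorted cortical thymocytes without the wide-tail arrays (0.49, adjusted p = 0.0038), Bcl2l11 in the same comparison with the mean of its probe sets (-0.55, adjusted p = 2.4e-04) and with plain-suffix probe sets (-0.35, adjusted p = 0.0026), and Mcl1 in whole medulla against sorted medullary thymocytes with plain-suffix probe sets (-0.26, adjusted p = 0.022). Of the other alternative values, 3175 kept their side of the threshold (a sign change where neither value passed is counted here), 44 newly passed and 35 no longer passed. Quantile normalization moved the median of all probe sets from 0.10 to -0.0887 for medulla against cortex, from -0.0402 to -0.182 for whole medulla against sorted medullary thymocytes, and from 0.0407 to -0.0823 for the interaction.

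The labels do not say whether equal replicate numbers mark the same animal, and weak correlation cannot exclude it. In no comparison did every same-numbered pair correlate above 0.1 in its deviations from the group means. For medulla against cortex r was -0.01 to 0.25, with 3 of 7 pairs above 0.1 and 3 of 7 best with their own number. With the replicate number as a block, 1 member in place of 0 was called in whole cortex against sorted cortical thymocytes, and the count stayed for the other comparisons; over all probe sets 6173 in place of 6172 were called for medulla against cortex and 4679 in place of 3734 for whole cortex against sorted cortical thymocytes. Between subcapsular and central cortex, 3 of 3 samples correlated best with their own number, at r of 0.01.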

Other observations

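The extrinsic arm of cell death, in which surface receptors activate caspase 8 and Bid, was not covered above. Of 10 listed genes of death receptors and their partners, 8 were tested; in tissue 4 rose and 1 fell (31.7% and 21.1% of all probe sets), and in sorted cells 3 rose and 2 fell (17.7% and 16.2%), with list medians of 0.383 and 0.241 beside 0.10 and 0.0668 over all probe sets. The receptor Fas fell on the medullary side in tissue (log2 -0.65, adjusted p = 6.8e-07) and in sorted cells (-0.74, adjusted p = 3.1e-06), the direction of Bid. Its ligand Fasl was weak but higher in sorted medullary thymocytes, at 137 ± 44.4 against 51.9 ± 11.1 (log2 1.03, adjusted p = 3.1e-04). Casp8, the initiator caspase of this arm, was at 3920 ± 284 in sorted medullary and 1810 ± 151 in sorted cortical thymocytes (log2 1.11, adjusted p = 1.0e-05), and at 1900 ± 521 in whole medulla, below sorted medullary thymocytes (log2 -1.08, adjusted p = 3.4e-06). Tnfsf10, the ligand TRAIL, was called higher in whole medulla, at 488 ± 108 against 138 ± 30 in whole cortex (log2 1.65, adjusted p = 4.7e-11). Fas was chosen for mention after its values were seen.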
